A study of Mus musculus with 4 samples.

Results

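The 10 genes described here make or break down eicosanoids, the signalling lipids formed from arachidonic acid. They are the cyclooxygenases Ptgs1 and Ptgs2, the prostanoid synthases Ptgis, Ptges, Ptgds and Hpgds, the prostaglandin dehydrogenase Hpgd, and the lipoxygenase genes Alox5, Alox5ap and Alox15. They were chosen as a set by name, with earlier results of these data known, are 10 of the 25149 genes in the tables, and were followed in nonparenchymal liver cells of mice given CCl4, a solvent that injures hepatocytes and leads to fibrosis, or the corn oil it was dissolved in. All mice were wild-type males of 8 to 10 weeks, with 2 in the CCl4 group and 2 in the corn oil group. They received 10 µl per g of body weight into the peritoneum, 2 injections a week for 5 weeks, as 1 part CCl4 to 9 parts corn oil in the CCl4 group and as corn oil in the control group, and were killed 48 h after the last injection. After perfusion of the liver with digesting enzymes (pronase, then collagenase), a spin at 50 × g took out hepatocytes, and each mouse gave 1 whole-transcriptome library of single cells in which each captured RNA molecule was counted once (a UMI count). The CCl4 group is a model of repeated toxic injury sampled at a single time, and the gates below hold only cells that survived digestion.

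Arachidonic acid is cut from membrane lipids by phospholipases and then enters separate branches. Cyclooxygenases turn it into prostaglandin H2, from which terminal synthases make prostacyclin, prostaglandin E2 or prostaglandin D2, while 5-lipoxygenase, helped by the membrane protein encoded by Alox5ap, starts leukotriene synthesis, and 12/15-lipoxygenase makes other oxidised lipids. Hpgd encodes the dehydrogenase that inactivates prostaglandins. In liver, sinusoidal cells, stellate cells and macrophages are known sources of prostanoids, and myeloid cells are known sources of leukotrienes.

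Of 27091 cells, the 25861 in which 200 or more genes were seen and mitochondrial UMIs made up no more than 25% were kept. They were sorted by UMIs of marker genes into 5 gates. The endothelial gate needed at least 5 UMIs of Kdr, Ptprb and Egfl7, the stellate gate at least 5 of Reln, Colec11 and Lrat, the Kupffer gate at least 5 of Clec4f, the monocyte gate at least 3 of Chil3, F13a1 and Vcan with at most 2 of Clec4f, and the last gate at least 2 of Prg4, Serpinb2 and Gata6. Cells that met more than 1 gate were dropped. The CCl4 mice gave 3044 and 2769 endothelial, 306 and 75 stellate, 226 and 224 Kupffer, 897 and 1334 monocyte and 106 and 60 Prg4/Serpinb2/Gata6 cells, against 5260 and 5315, 137 and 123, 213 and 216, 26 and 13, and 24 and 83 in the corn oil mice. Levels are given as CPM, the UMIs of a gene scaled to the gate's total in that mouse, and tests used edgeR's quasi-likelihood fit on the sums per mouse, with Benjamini-Hochberg adjustment over all genes of the gate and a call at an adjusted p under 0.05. The monocyte gate fell below the set minimum of 20 cells per mouse in a corn oil mouse, so its test was an addition chosen after seeing the data.

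The libraries held 45408857 to 55529871 UMIs and 5948 to 7663 cells, with 48 to 74 cell barcodes shared between any 2 libraries. Median UMIs per cell were 6861 and 6162 in CCl4 mice and 5397 and 4493 in corn oil mice, and in the Kupffer gate 13460.5 and 14563.5 in CCl4 mice and 8678 and 7256.5 in corn oil mice. The table of CCl4 mouse 1 came from a separate pipeline run from the other 3. In the endothelial, stellate, Kupffer and monocyte gates all 5 further markers of the named cell type, not used for gating, were detected in every mouse. Detection alone does not set a gate apart, since all 5 monocyte markers were also detected in the endothelial gate. By level, Stab2 was at 1022 to 1599 CPM in the endothelial gate and at most 145 CPM in the others. Dcn was at 9149 to 16740 CPM in the stellate gate and at most 3047 CPM elsewhere. Vsig4 was at 1888 to 2915 CPM in the Kupffer gate (at most 115 elsewhere), and Ccr2 at 1039 to 2655 CPM in the monocyte gate (at most 199 elsewhere). Clec4f, the gating gene of the Kupffer gate, was itself at 2060 and 2634 CPM there in CCl4 mice and 5806 and 4856 CPM in corn oil mice. Reln, a gating gene of the stellate gate, was there at 1979 and 1588 CPM in CCl4 mice and 4580 and 4956 CPM in corn oil mice. Kdr in the endothelial gate was at 2465 and 2488 CPM in CCl4 mice and 4142 and 5247 CPM in corn oil mice. In these gates a change within a cell and a change in which cells passed cannot be told apart. The data went against the name of the last gate, meant for peritoneal-type macrophages. Gata6 was found in 89.2% to 95.8% of its cells and Serpinb2 in 0.943% to 10.8%. Mesothelial markers, at 2 or more UMIs, were present in 31.1% and 33.3% of its cells in CCl4 mice and 58.3% and 31.3% in corn oil mice. Of all its cells, 36.8% and 35.0% in CCl4 mice and 33.3% and 38.6% in corn oil mice lacked these but held 10 or more UMIs of hepatocyte markers. It is called here the Prg4/Serpinb2/Gata6 gate. In the annotation, genes on the opposite strand overlap Ptgis (Gm14291 and 1110018N20Rik), Alox5ap (Gm19719 and n-R5s180), Ptgs1 (Gm43621) and Hpgds (Gm17147), and genes on the same strand overlap Ptges (Gm13400) and Hpgd (Gm45540). With the strand of counting not stated, their reads cannot be told apart. Of these genes, Gm14291 and Gm19719 were counted in the tables used here. Over the 5 gates they had 4 UMIs beside 1882 of Ptgis and 7 beside 21636 of Alox5ap.

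The 250 bases before the RefSeq transcription start are shown for 3 members whose levels changed: Ptgs2, which was higher after CCl4, and Ptgs1 and Hpgd, which were lower. The windows lie at chr1:150099781-150100030 on the plus strand for Ptgs2, chr2:36230176-36230425 on the plus strand for Ptgs1 and chr8:56294302-56294551 on the plus strand for Hpgd, in build GRCm38.p6. RefSeq windows were found for 7 of the 10 members. Capitals mark matches, on either strand, to 6 motifs searched. They were TATAAA, the core promoter element, TGACGT, the type bound by cyclic AMP response factors, CACGTG, the E-box, TTNNGNAA, the C/EBP type, GAGGAA, the PU.1 and ETS type, and TGANTCA, the AP-1 type.
Ptgs2: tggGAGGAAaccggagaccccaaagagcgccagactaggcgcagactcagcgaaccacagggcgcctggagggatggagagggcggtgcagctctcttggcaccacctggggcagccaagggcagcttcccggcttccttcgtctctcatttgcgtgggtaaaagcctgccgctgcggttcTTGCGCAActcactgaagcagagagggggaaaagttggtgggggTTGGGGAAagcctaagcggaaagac
Ptgs1: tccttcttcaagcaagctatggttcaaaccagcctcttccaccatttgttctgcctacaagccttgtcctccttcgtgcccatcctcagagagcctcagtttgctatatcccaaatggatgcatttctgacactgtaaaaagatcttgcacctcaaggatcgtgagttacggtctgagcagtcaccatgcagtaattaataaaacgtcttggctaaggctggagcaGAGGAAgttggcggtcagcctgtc
Hpgd: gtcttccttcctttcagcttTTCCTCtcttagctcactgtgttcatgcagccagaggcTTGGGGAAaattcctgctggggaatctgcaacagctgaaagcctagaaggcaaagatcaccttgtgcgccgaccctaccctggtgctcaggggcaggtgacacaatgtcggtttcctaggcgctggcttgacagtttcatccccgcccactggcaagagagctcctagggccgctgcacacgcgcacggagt
Read 5′ to 3′, the Ptgs2 window held TTNNGNAA at 69 to 62 bases before the start, where it matched on both strands, and again at 25 to 18 bases, and GAGGAA at 247 to 242 bases. The Ptgs1 window held GAGGAA at 24 to 19 bases, and the Hpgd window held TTNNGNAA at 192 to 185 bases and GAGGAA on the other strand at 230 to 225 bases. Of 32851 windows of the same length, 36.8% held TTNNGNAA, 23.3% GAGGAA, 12.4% TATAAA, 6.75% TGANTCA, 6.47% TGACGT and 6.02% CACGTG. The matches describe letters in these windows and were not tied to binding of any factor.

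The direction of change after CCl4 differed by gene, and no member was called in opposite directions in 2 gates. In the Kupffer gate, named for the resident liver macrophages, 4 of the 5 members that passed the count filter fell. They were Ptgs1, Ptgis, Hpgd and Alox5ap, and no tested member was called higher. Clec4f was lower there after CCl4, so a change within a cell and a change in which cells passed the gate cannot be told apart. In stellate cells, the vitamin A storing cells that give rise to scar-forming myofibroblasts, 2 of 4 fell (Ptgs1 and Hpgd). In endothelial cells 1 of 7 rose (Ptgs2). None of 6 was called in the Prg4/Serpinb2/Gata6 gate, and in the added test of the monocyte gate Ptgs2 rose and Alox5 fell among 7 tested. Over all genes tested, percent called was 15.2 in the Kupffer gate (7.66 higher, 7.58 lower), 7.84 in the stellate gate (3.83 higher, 4.01 lower), 6.24 in the endothelial gate (3.27 higher, 2.98 lower), 0.0 in the Prg4/Serpinb2/Gata6 gate and 2.37 in the monocyte gate (0.936 higher, 1.43 lower). The median log2 change of the tested members was -0.88 in the Kupffer gate, -1.16 in the stellate gate, 0.13 in the endothelial gate, -0.62 in the Prg4/Serpinb2/Gata6 gate and -1.38 in the monocyte gate, beside medians over all genes of -0.0058, -0.012, 0.0061, -0.012 and 0.11 in the same order. In the Prg4/Serpinb2/Gata6 gate edgeR called 0 of 9146 genes, with 754 at an unadjusted p under 0.05, while DESeq2 called 80.

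**Figure D1:**
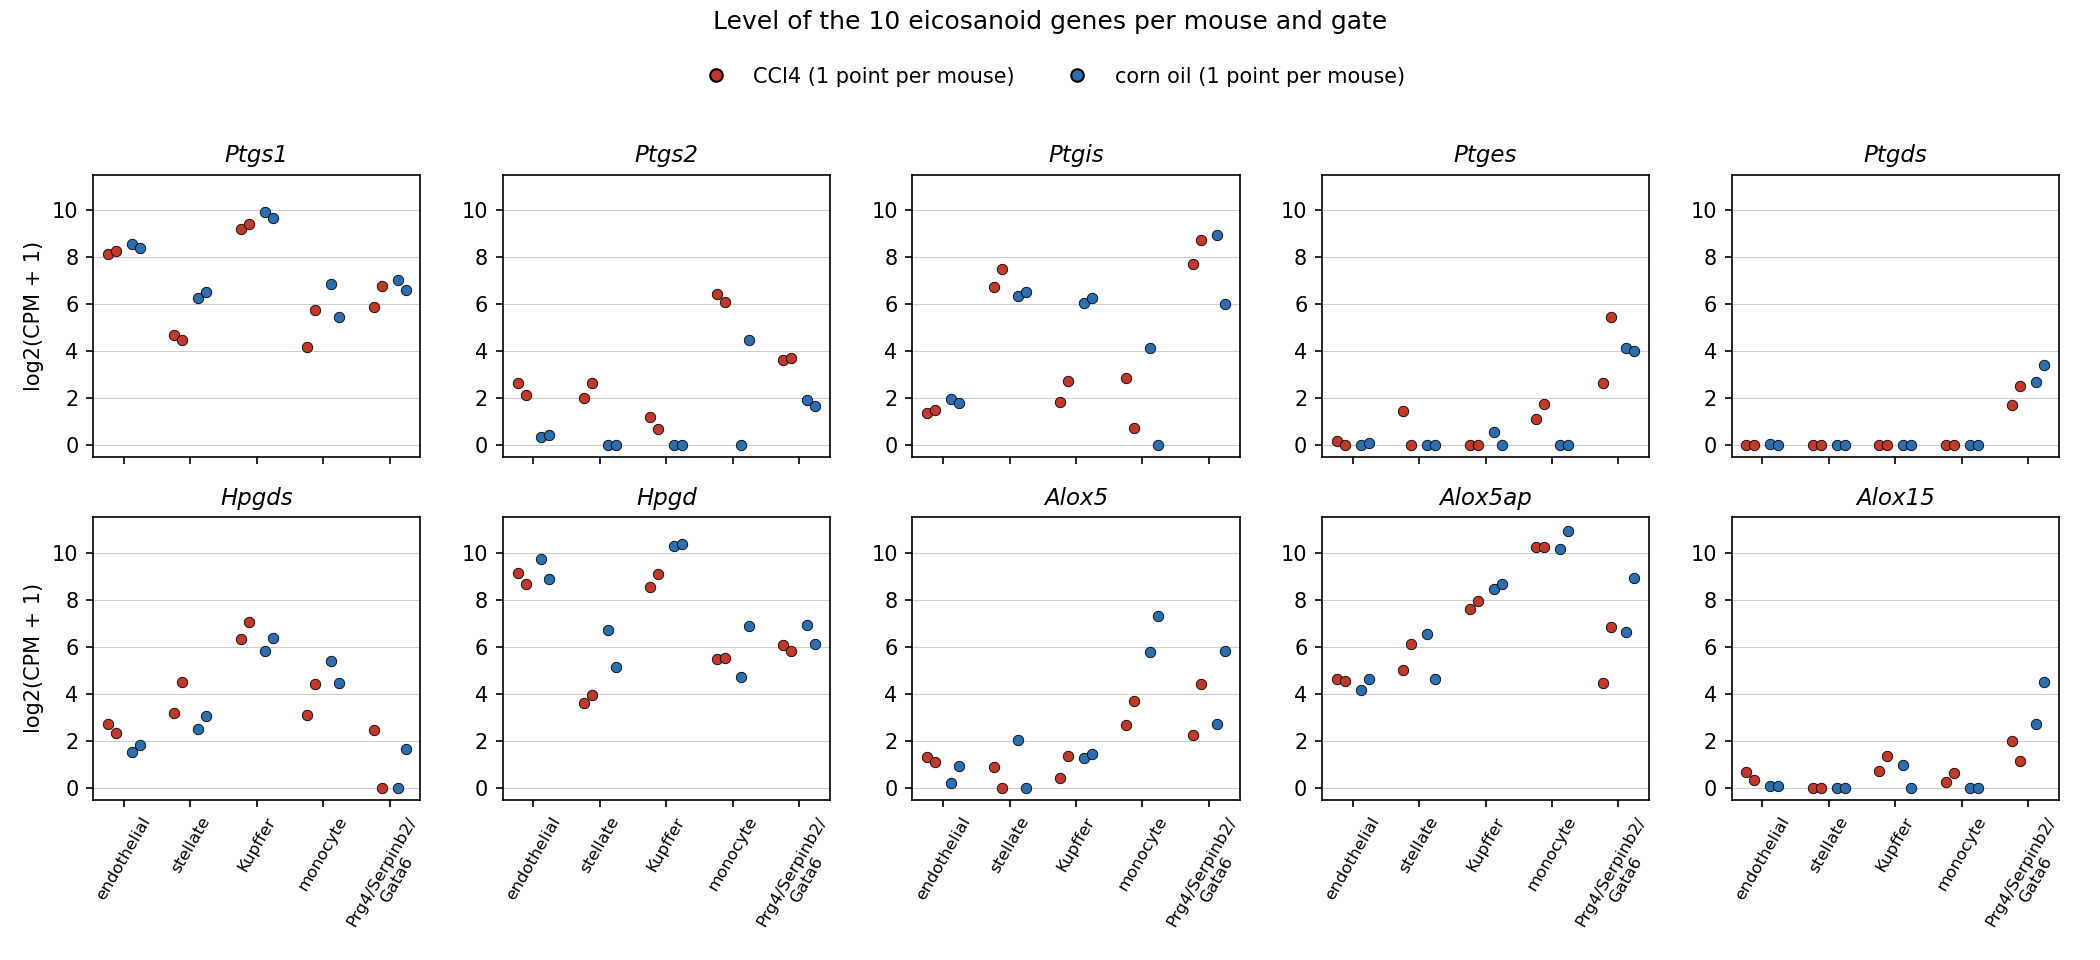
Level of each of the 10 genes in each gate, as log2(CPM + 1) with 1 point per mouse, CCl4 in red to the left of corn oil in blue. Ptgis in the Kupffer gate lies apart by group, at 2.61 and 5.71 CPM in CCl4 mice and 65.0 and 76.0 CPM in corn oil mice.

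**Figure D2:**
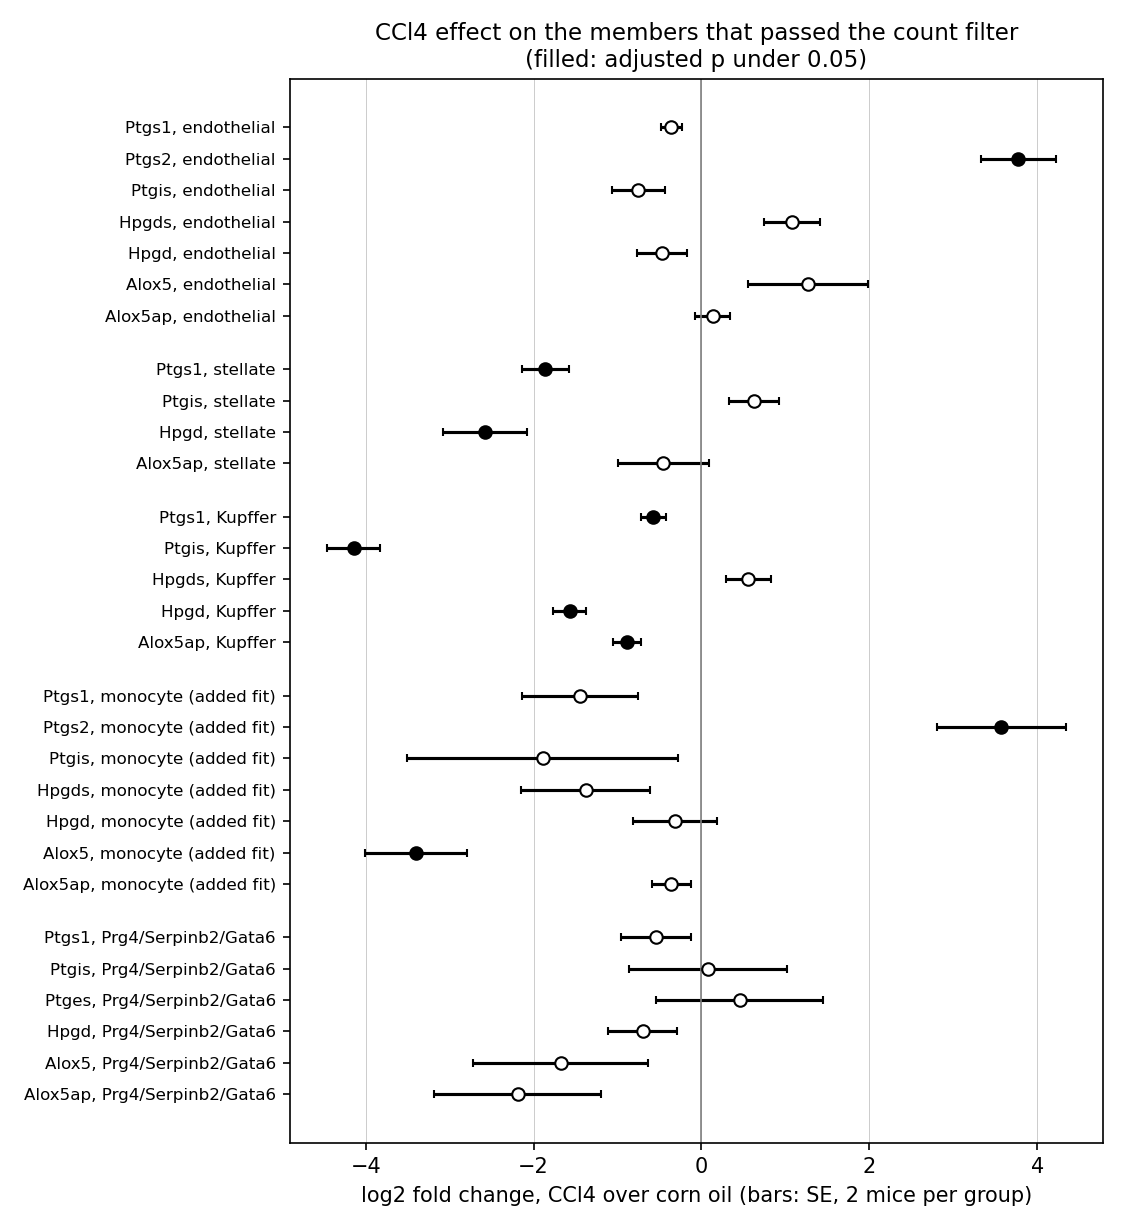
Log2 fold change of CCl4 over corn oil with its standard error (bars) for each member that passed the count filter, with filled points at an adjusted p under 0.05 and the added monocyte test named as such. Called points lie on the left in the Kupffer and stellate gates and on the right in the endothelial gate.

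Ptgs1 encodes cyclooxygenase 1, the form made continuously in many cells. It lies at chr2:36230426-36252272 on the plus strand (GRCm38). Its level was 589 and 681 CPM in the Kupffer gate of CCl4 mice, against 973 and 814 CPM in corn oil mice. Both CCl4 values lay below both corn oil values, and the gene fell by 0.57 on the log2 scale (SE 0.15, edgeR adjusted p = 0.0329). That call was lost when CCl4 mouse 1, CCl4 mouse 2 or corn oil mouse 1 was left out, with adjusted p of 0.224, 0.0869 and 0.0793. In the stellate gate Ptgs1 was at 24.9 and 21.4 CPM in CCl4 mice and 76.7 and 89.2 CPM in corn oil mice. The groups did not overlap, and the fall of 1.86 on the log2 scale (SE 0.28, edgeR adjusted p = 0.00566) was called in all 12 alternatives run.

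The stellate values rested on few molecules, 70 UMIs in CCl4 mice and 98 in corn oil mice, and a single cell held 29.3% and 41.7% of them in the CCl4 mice. With each cell thinned to 1500 UMIs, 1.63% and 1.33% of stellate cells held a Ptgs1 UMI in CCl4 mice and 8.03% and 13.8% in corn oil mice. The unthinned shares were 5.23% and 10.7% in CCl4 mice and 19.7% and 22.8% in corn oil mice. Stellate cells with a Ptgs1 UMI also carried more RNA of the Kupffer markers Vsig4, Timd4, Cd5l, Marco and C1qa than those without, at 1287 against 90.1 CPM in CCl4 mice and 242 against 33.7 CPM in corn oil mice. For the 5 monocyte markers Ly6c2, Ccr2, Plac8, Lyz2 and Ms4a4c these values were 2825 against 1444 CPM in CCl4 mice and 2268 against 797 CPM in corn oil mice. Over the whole stellate gate, the 5 Kupffer markers summed to 196 and 176 CPM in CCl4 mice, with 5 and 4 of 5 detected. In corn oil mice they summed to 114 and 52.8 CPM, with 4 of 5 detected in each. The 5 endothelial markers Stab2, Clec4g, Pecam1, Cdh5 and Oit3 summed to 57.1 and 53.5 CPM there in CCl4 mice and 135 and 117 CPM in corn oil mice, lower in CCl4 mice as Ptgs1 was. Their part in the stellate values was not tested. The Ptgs1 level of the stellate gate was 9.02% and 7.03% of the endothelial level in CCl4 mice and 20.2% and 26.5% in corn oil mice, whereas Stab2 stood at 0.582% and 0.523% in CCl4 mice and 0.783% and 0.869% in corn oil mice.

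In the endothelial gate Ptgs1 was at 276 and 304 CPM in CCl4 mice and 379 and 337 CPM in corn oil mice. The groups did not overlap, but the log2 change of -0.36 (SE 0.13, edgeR adjusted p = 0.140) was not called. The monocyte gate held 17.0 and 53.3 CPM in CCl4 mice and 116 and 42.4 CPM in corn oil mice, and the Prg4/Serpinb2/Gata6 gate 58.2 and 107 CPM in CCl4 mice and 129 and 95.5 CPM in corn oil mice, with overlap in both. Compared over both treatments in a joint fit, the Ptgs1 level ran from Kupffer through endothelial and Prg4/Serpinb2/Gata6 to stellate, and each neighbouring pair differed. The endothelial level was 1.28 lower than the Kupffer level on the log2 scale (difference -1.28, SE 0.16, edgeR adjusted p = 2.0e-05). The Prg4/Serpinb2/Gata6 level was lower than the endothelial level (endothelial minus Prg4/Serpinb2/Gata6 1.89, edgeR adjusted p = 1.5e-06), and the stellate level was lower again (stellate minus Prg4/Serpinb2/Gata6 -0.999, edgeR adjusted p = 0.00191). Of all genes, 55.3 percent were called between the endothelial and Kupffer gates, 60.6 between endothelial and Prg4/Serpinb2/Gata6, 38.4 between stellate and Prg4/Serpinb2/Gata6, 42.2 between endothelial and stellate, 48.1 between stellate and Kupffer and 56.0 between Kupffer and Prg4/Serpinb2/Gata6.

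Ptgs2 encodes cyclooxygenase 2, the inducible form, which is an immediate early gene in many cells. It lies at chr1:150100031-150108227 on the plus strand. Endothelial cells had 5.34 and 3.44 CPM in CCl4 mice, against 0.267 and 0.349 CPM in corn oil mice. The groups did not overlap at 191 UMIs in CCl4 mice and 17 in corn oil mice, and the gene rose by 3.78 on the log2 scale (SE 0.44, edgeR adjusted p = 0.00770, 13.7-fold). The call was lost only without CCl4 mouse 1 among the 12 alternatives run, at an adjusted p of 0.0518. The level was low: thinned to 1500 UMIs per cell, 0.493% and 0.361% of endothelial cells held a UMI in CCl4 mice and 0.0760% and 0.0564% in corn oil mice. In the Kupffer gate those shares were 0.442% and 0.0% in CCl4 mice and 0.0% in each corn oil mouse, with exact 95% intervals reaching 2.44% and 1.63% in CCl4 mice, which include the endothelial shares. The Kupffer level was 1.30 and 0.634 CPM in CCl4 mice and 0 in corn oil mice. Over both treatments the joint fit called the endothelial level higher (endothelial minus Kupffer 3.19, SE 1.24, edgeR adjusted p = 0.0490). With 6 Kupffer UMIs in CCl4 mice and 0 in corn oil mice, the size of that difference has no clear meaning. The contrast was not followed through the alternatives.

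The monocyte gate held more of the Ptgs2 RNA of CCl4 mice than any other gate. It had 85.1 and 67.1 CPM in CCl4 mice (446 and 510 UMIs), against 0 and 21.2 CPM in corn oil mice (0 and 2 UMIs). The ratio of the summed levels was 12.5, with an exact 95% interval of 3.44 to 103 for counting error only. The added test gave a rise of 3.57 on the log2 scale (SE 0.77, edgeR adjusted p = 0.0449), which was lost with relative log expression scaling (0.0569), with purer gates (0.0911) and without corn oil mouse 1 (0.377). Without corn oil mouse 1 the change was 1.88, and without corn oil mouse 2 the corn oil side had no UMI, so that the size of the fitted change has no meaning. The corn oil side rests on 26 and 13 cells. Other genes of the gate differed between the groups too. Ly6c2, which marks classical monocytes, was at 618 and 849 CPM in CCl4 mice and 137 and 117 CPM in corn oil mice, Ccr2 at 1891 and 2655 CPM in CCl4 mice and 1208 and 1039 CPM in corn oil mice, and the neutrophil markers at 461 and 688 CPM in CCl4 mice and 54.0 and 74.2 CPM in corn oil mice. Fn1 ran the other way, at 1558 and 1556 CPM in CCl4 mice and 3446 and 6455 CPM in corn oil mice. A change within a cell and a change in which cells passed the gate cannot be told apart here. After thinning, 8.36% and 7.12% of monocyte-gate cells held a Ptgs2 UMI in CCl4 mice and 0.0% in each corn oil mouse, where the 95% intervals reached 13.2% and 24.7%. Unthinned shares were 16.6% and 15.2% in CCl4 mice and 0.0% and 7.69% in corn oil mice. Monocyte-gate cells made up 44.4% and 61.1% of all Ptgs2 UMIs in kept cells of CCl4 mice, and 0.0% and 2.86% in corn oil mice. Dropped cells of several gates held 241 of 1004 and 148 of 835 of these UMIs in CCl4 mice. In corn oil mice they held 85 of 137 and 48 of 70. Dropped cells meeting both the monocyte and Prg4/Serpinb2/Gata6 gates numbered 40 and 29 in CCl4 mice and 21 and 15 in corn oil mice. The effect of this dropping on the Ptgs2 difference in the monocyte gate was not tested.

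Monocyte RNA was also present in the endothelial gate and moved with the group in part. Chil3, a gating gene of monocytes, was at 6.57 and 3.91 CPM in endothelial cells of CCl4 mice and 0.133 and 0.155 CPM in corn oil mice. The 5 check markers Ly6c2, Ccr2, Plac8, Lyz2 and Ms4a4c, all detected in each mouse, summed to 458 and 366 CPM in CCl4 mice and 221 and 519 CPM in corn oil mice, with overlap. Lists of 5 markers each for neutrophils, fibroblasts and Kupffer cells were higher in endothelial cells of CCl4 mice, with all 5 detected in every mouse. Neutrophil markers summed to 71.2 and 57.3 CPM in CCl4 mice and 6.0 and 16.6 CPM in corn oil mice. Fibroblast markers (Pi16, Dpt, Cd34, Mfap4 and Gas1) summed to 121 and 149 CPM in CCl4 mice and 48.9 and 42.7 CPM in corn oil mice. That sum does not show which of these genes rose, so it is not taken as RNA of fibroblasts. Kupffer markers summed to 122 and 86.5 CPM in CCl4 mice and 49.1 and 65.0 CPM in corn oil mice. The list for large peritoneal macrophages (Icam2, Selp, Fn1, Garnl3 and Lrg1) summed to 882 and 729 CPM in CCl4 mice and 253 and 225 CPM in corn oil mice. Most of that sum in CCl4 mice was Lrg1, at 640 and 478 CPM in CCl4 mice and 69.1 and 42.9 CPM in corn oil mice, and Selp was higher too, while Icam2 and Fn1 overlapped between the groups. Selp and Lrg1 are also known endothelial genes. The part of RNA from other cells in the endothelial Ptgs2 value was not tested. The 73 endothelial cells with a Ptgs2 UMI in CCl4 mice carried 1438 CPM of the 5 monocyte markers, against 398 CPM in the 5740 cells without. For the 5 Kupffer markers these values were 223 and 104 CPM, and for Icam2, Selp, Fn1, Garnl3 and Lrg1 together 625 and 817 CPM. The endothelial level of Ptgs2 was 6.27% and 5.12% of the monocyte-gate level in CCl4 mice, that of Ly6c2 3.59% and 3.03%, that of Ccr2 0.831% and 0.874% and that of Chil3 0.393% and 0.181%. Chil3 is a gating gene, so that cells rich in it were dropped from the endothelial gate. With endothelial cells holding more than 1 UMI of another gate's genes removed, the Ptgs2 change was 4.17 on the log2 scale (edgeR adjusted p = 0.0143). In the other gates Ptgs2 was too sparse to test. The stellate gate had 10 UMIs in CCl4 mice and 0 in corn oil mice, and the Kupffer gate 6 in CCl4 mice and 0 in corn oil mice. The exact 95% intervals of these ratios began at 0.922 and 0.736, so no difference was detectable at this depth. Ptgs2 in the Prg4/Serpinb2/Gata6 gate was at 11.2 and 11.9 CPM in CCl4 mice and 2.74 and 2.15 CPM in corn oil mice, from 25 and 3 UMIs. A single cell held 53.3% and 80.0% of the UMIs in the CCl4 mice, and no ratio is drawn from them.

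Immediate early and dissociation genes, a list of 14 that digestion of tissue is known to switch on, were followed beside Ptgs2. In the endothelial gate 1 of 14 rose (Nr4a1, 1.36 on the log2 scale) and 3 fell (Egr1, Fosb and Jun), with a median of -0.81. In the Kupffer gate 11 of 14 fell, among them Egr1 at -2.20 and Jun at -1.60, with a median of -1.19, and in the stellate gate none was called. In the monocyte gate 1 of 14 rose in the added test (Zfp36, 1.12) and the median was 0.45. Over all genes, percent called was 3.27 higher and 2.98 lower in the endothelial gate, 7.66 higher and 7.58 lower in the Kupffer gate, and 0.936 higher in the monocyte gate. There the list summed to 11986 and 10451 CPM in CCl4 mice and 6735 and 8744 CPM in corn oil mice, higher in CCl4 mice as Ptgs2 was, and its part in the Ptgs2 value was not tested. Summed over the list, Kupffer cells had 8586 and 7278 CPM in CCl4 mice and 14454 and 20021 CPM in corn oil mice, so RNA of this list was lower where most members were lower. Its part in those falls was not tested.

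**Figure D3:**
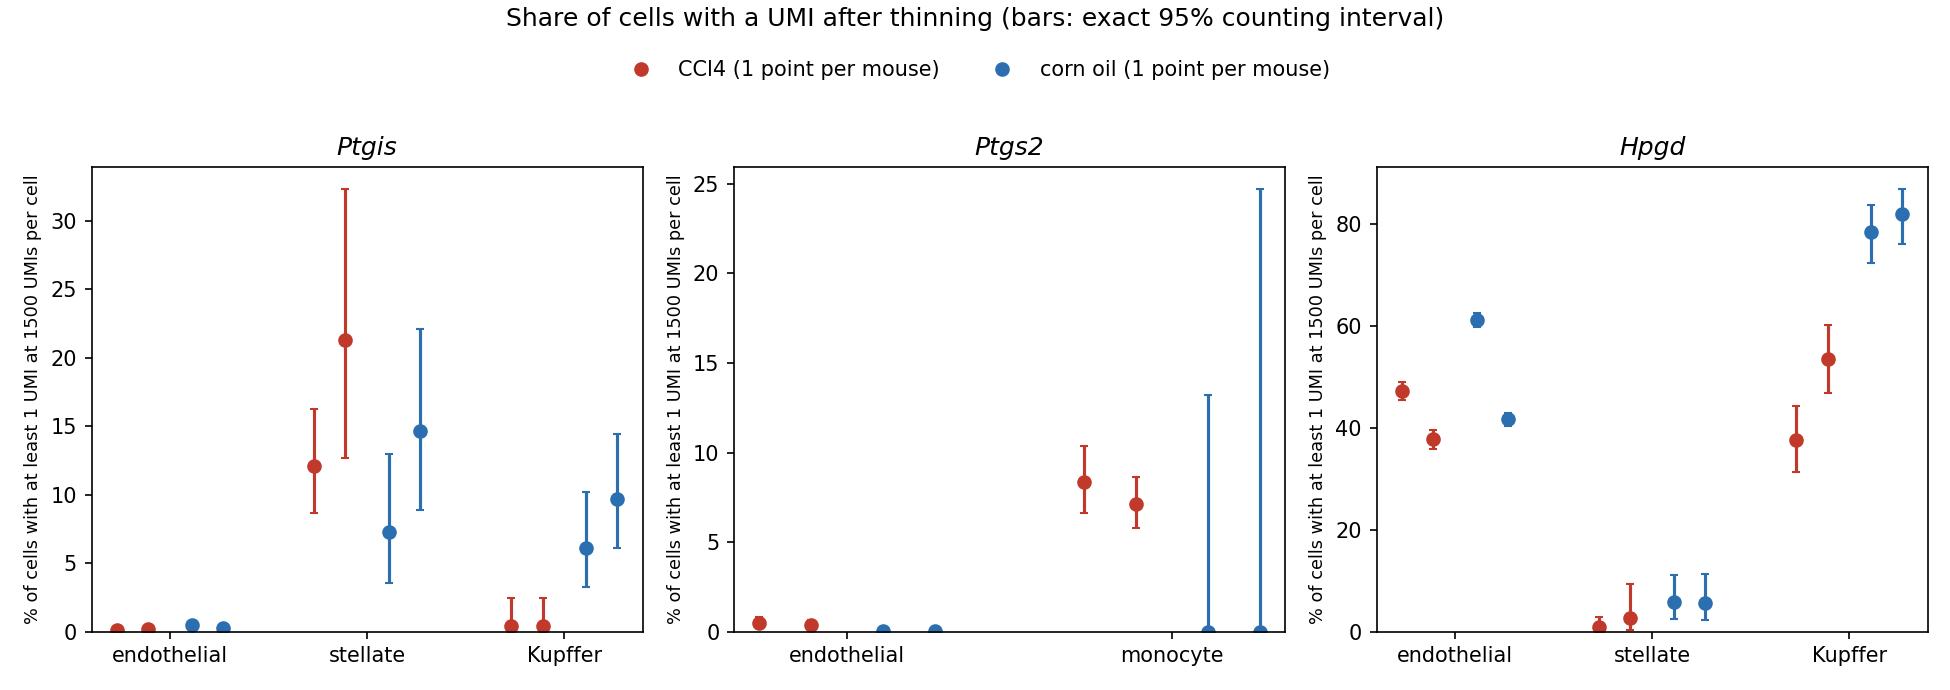
Share of cells with at least 1 UMI of Ptgis, Ptgs2 and Hpgd after thinning each cell to 1500 UMIs, with 1 point per mouse and exact 95% counting intervals, CCl4 in red to the left of corn oil in blue. The corn oil monocyte points rest on 26 and 13 cells and have intervals up to 13.2% and 24.7%.

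Ptgis encodes prostacyclin synthase, which makes a vasodilator that keeps platelets from aggregating. It lies at chr2:167191805-167240604 on the minus strand. Kupffer cells had 2.61 and 5.71 CPM in CCl4 mice, against 65.0 and 76.0 CPM in corn oil mice. The groups were far apart, with 26 UMIs in CCl4 mice and 272 in corn oil mice. The gene fell by 4.14 on the log2 scale (SE 0.31, edgeR adjusted p = 0.000238), 17.7-fold lower, and the call held in all 12 alternatives with changes between -4.78 and -3.71. Thinned shares of Kupffer cells with a UMI were 0.442% and 0.446% in CCl4 mice and 6.10% and 9.72% in corn oil mice, beside 3.10% and 5.80% and 37.1% and 33.8% before thinning. In endothelial cells the thinned shares were 0.131% and 0.181% in CCl4 mice and 0.475% and 0.301% in corn oil mice.

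RNA of stellate markers was found in the Kupffer gate. Dcn, Des, Pdgfrb, Col3a1 and Hand2 summed to 87.7 and 33.3 CPM in CCl4 mice, with 5 of 5 detected in each, and to 152 and 233 CPM in corn oil mice, with 4 and 5 of 5 detected, lower in CCl4 mice as Ptgis was. The Kupffer level of Ptgis was 2.48% and 3.20% of the stellate level in CCl4 mice and 79.9% and 85.1% in corn oil mice, whereas that of Dcn was 0.712% and 0.288% in CCl4 mice and 0.886% and 1.26% in corn oil mice. Kupffer cells of corn oil mice with a Ptgis UMI carried 178 CPM of the 5 stellate markers, against 198 CPM in those without. In CCl4 mice the 20 cells with a Ptgis UMI carried 254 CPM, against 47.7 CPM in those without. With cells holding more than 1 UMI of another gate's genes removed, the change was -4.53 on the log2 scale (edgeR adjusted p = 4.7e-05). The barcodes dropped for meeting both the endothelial and the Kupffer gate alone showed the same direction, with 2.82 and 3.32 CPM in CCl4 mice and 33.8 and 45.3 CPM in corn oil mice. The part of stellate RNA in the Kupffer values of Ptgis was not tested.

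In the stellate gate Ptgis was at 105 and 178 CPM in CCl4 mice and 81.4 and 89.2 CPM in corn oil mice. Both CCl4 values were above both corn oil values, but the log2 change of 0.62 (SE 0.29, edgeR adjusted p = 0.252) was not called. Endothelial cells had 1.57 and 1.80 CPM in CCl4 mice and 2.97 and 2.48 CPM in corn oil mice (log2 change -0.75, SE 0.31, edgeR adjusted p = 0.199). The Prg4/Serpinb2/Gata6 gate had 209 and 425 CPM in CCl4 mice and 485 and 63.3 CPM in corn oil mice, a spread wider than any group difference. Its cells with mesothelial markers held 140 of 280 Ptgis UMIs in CCl4 mouse 1 and 285 of 356 in CCl4 mouse 2. In corn oil mice they held 170 of 177 and 50 of 59, so the level of this mixed gate is not that of a single cell type. The monocyte gate had 6.29 and 0.658 CPM in CCl4 mice and 16.6 and 0 CPM in corn oil mice. Over both treatments the Ptgis level ran from Prg4/Serpinb2/Gata6 through stellate and Kupffer to endothelial, and each step was called, with stellate minus Kupffer at 2.55 (SE 0.50, edgeR adjusted p = 0.000945) and endothelial minus Kupffer at -3.04 (SE 0.61, edgeR adjusted p = 0.000911). The last of these missed the call without CCl4 mouse 2, at 0.0528. This order pools the treatments and did not hold in each mouse: in corn oil mouse 2 the Prg4/Serpinb2/Gata6 level lay below the stellate and Kupffer levels, and in corn oil mice the stellate and Kupffer levels were close. Cells that met more than 1 gate held 58.5% and 62.0% of all Ptgis UMIs in CCl4 mice and 68.3% and 74.8% in corn oil mice, so the gates saw the smaller share of this gene.

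The CCl4 effect on Ptgis differed between gates. In the joint fit of 4 gates the effect in the Kupffer gate was lower than in the Prg4/Serpinb2/Gata6 gate (log2 difference -4.63, SE 0.95, edgeR adjusted p = 0.0389), where percent called over all genes was 1.45, and the test of all gates together gave an adjusted p of 0.0546 at 2.03 percent called. In a joint fit of the endothelial, stellate and Kupffer gates alone, chosen after seeing the data because the Prg4/Serpinb2/Gata6 gate was mixed, the test of all gates together gave an edgeR adjusted p of 8.2e-05 for Ptgis and 0.0194 for Ptgs1, with 5.23 percent of genes called. There the Ptgis effect was 4.90 higher in stellate than in Kupffer cells (SE 0.35, edgeR adjusted p = 6.0e-05, 1.25 percent of genes called) and 3.43 higher in endothelial than in Kupffer cells (SE 0.38, edgeR adjusted p = 0.000681, 4.08 percent called). The Ptgs1 effect was 1.37 higher in endothelial than in stellate cells (SE 0.25, edgeR adjusted p = 0.0179, 1.95 percent called). In the joint fit of 4 gates these contrasts had edgeR adjusted p of 0.0768 for Ptgis between stellate and Kupffer, 0.165 for Ptgis between endothelial and Kupffer, and 0.203 for Ptgs1 between endothelial and stellate. Percent called over all genes in that fit was 0.189, 0.678 and 0.355 for these pairs, 1.1 for endothelial against Prg4/Serpinb2/Gata6 and 0.386 for stellate against Prg4/Serpinb2/Gata6, with no member called in any of the 5 pairs. For Hpgd, Alox5ap and Ptgs2 no difference of the effect between 2 gates was called in either fit, so their changes are not shown to be particular to a gate. With purer gates the Alox5ap effect was called 1.17 higher in endothelial than in Kupffer cells (edgeR adjusted p = 0.0211).

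**Figure D4:**
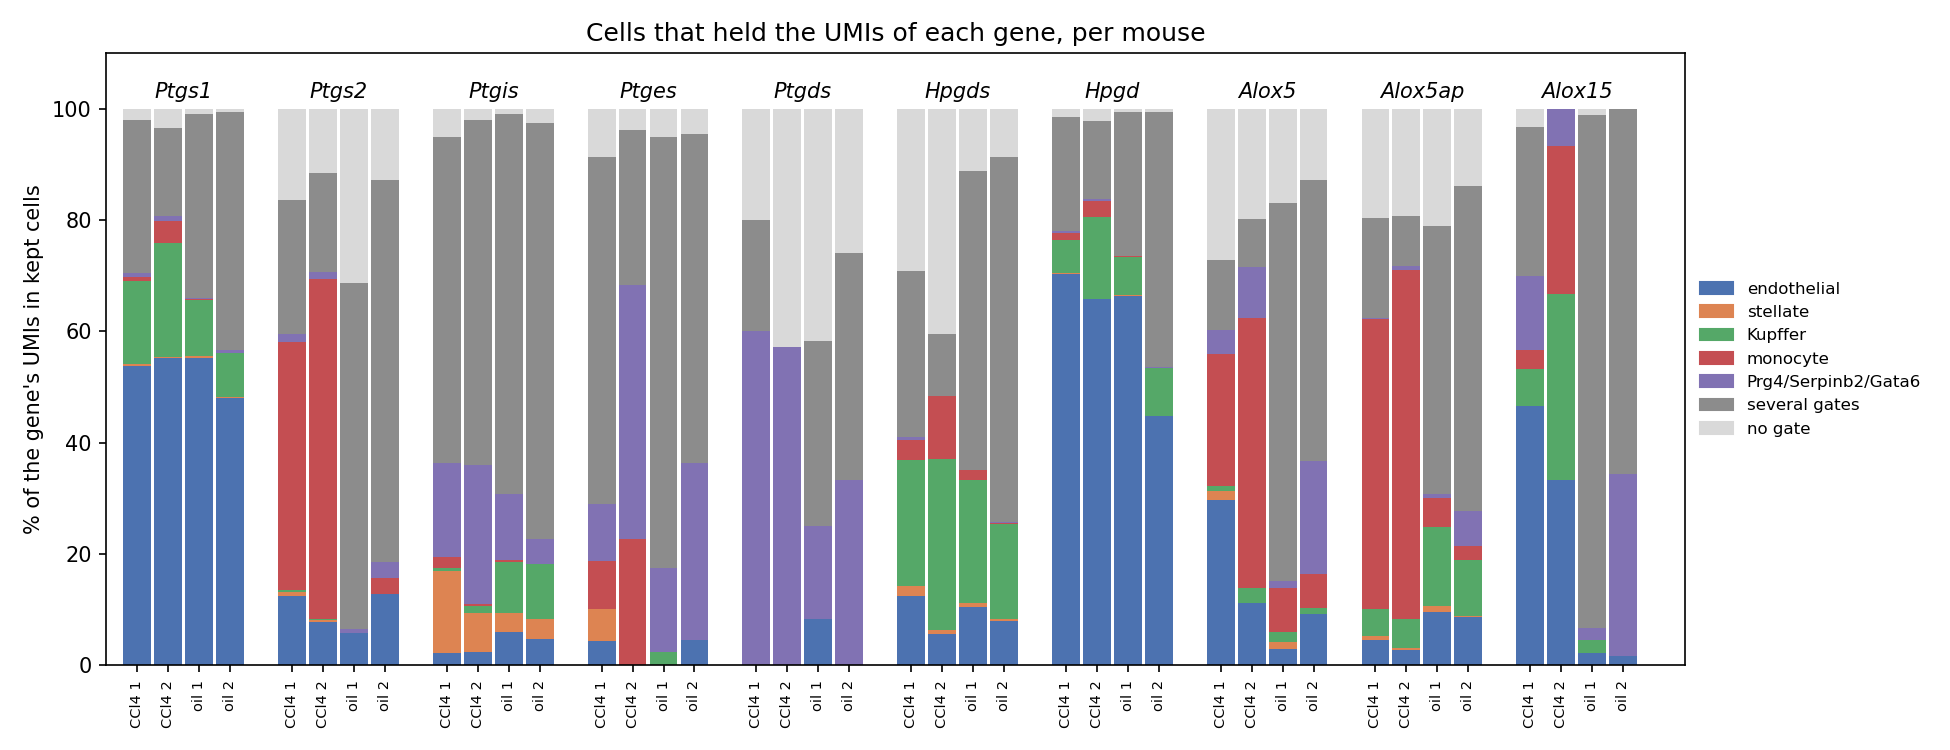
Share of each gene's UMIs in kept cells that lay in each gate, in cells of several gates and in cells of no gate, with 1 bar per mouse and CCl4 mice to the left of corn oil mice. Monocyte-gate cells hold 44.4% and 61.1% of Ptgs2 UMIs in CCl4 mice, and cells of several gates hold 58.5% to 74.8% of Ptgis UMIs in all 4 mice.

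Ptges encodes the inducible prostaglandin E2 synthase that is known to act with cyclooxygenase 2, and lies at chr2:30889471-30929863 on the minus strand. It was near 0 outside the Prg4/Serpinb2/Gata6 gate, where it had 5.22 and 43.0 CPM in CCl4 mice and 16.5 and 15.02 CPM in corn oil mice (log2 change 0.45, SE 0.99, edgeR adjusted p = 0.945). The corn oil values lay between the CCl4 values. The monocyte gate had 6 and 18 UMIs in CCl4 mice and 0 in corn oil mice, too few to be told apart at the depth of the corn oil cells. After thinning, 2 of 897 and 4 of 1334 monocyte-gate cells held a Ptges UMI in CCl4 mice, too few to look for overlap with Ptgs2.

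Ptgds and Hpgds encode the lipocalin-type and the haematopoietic prostaglandin D2 synthases. Ptgds lies at chr2:25466709-25470046 on the minus strand and had 5 and 7 UMIs in all kept cells of CCl4 mice and 12 and 27 in corn oil mice. It was at 0 in every mouse in the stellate, Kupffer and monocyte gates. Its level in the Prg4/Serpinb2/Gata6 gate was 2.24 and 4.77 CPM in CCl4 mice and 5.48 and 9.66 CPM in corn oil mice, from 7 and 11 UMIs. The ratio of those summed levels was 0.379, with a counting interval of 0.125 to 1.07 that includes no difference.

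Hpgds lies at chr6:65117293-65144908 on the minus strand, and of the 5 gates its level was highest in the Kupffer gate. Kupffer cells had 78.5 and 132 CPM in CCl4 mice and 54.7 and 80.5 CPM in corn oil mice. The groups overlapped, and the log2 change of 0.56 (SE 0.27, edgeR adjusted p = 0.191) was not called. Endothelial cells had 5.63 and 4.02 CPM in CCl4 mice and 1.87 and 2.56 CPM in corn oil mice, a change of 1.08 that was not called (SE 0.34, edgeR adjusted p = 0.107). The Kupffer level was above the endothelial level (endothelial minus Kupffer -4.71, SE 0.26, edgeR adjusted p = 6.5e-09) and above the stellate level (stellate minus Kupffer -3.42, SE 0.37, edgeR adjusted p = 5.9e-06), while endothelial and stellate levels were not called different (-1.29, SE 0.53, edgeR adjusted p = 0.0714). Stellate cells had 8.16 and 21.4 CPM in CCl4 mice and 4.70 and 7.29 CPM in corn oil mice, and the monocyte gate 7.44 and 20.4 CPM in CCl4 mice and 41.5 and 21.2 CPM in corn oil mice. Cells of no gate averaged 82.2 ± 33.2 CPM in CCl4 mice and 29.9 ± 3.3 CPM in corn oil mice (SD, n = 2 each, not tested).

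Hpgd encodes 15-hydroxyprostaglandin dehydrogenase, the first enzyme of prostaglandin breakdown, and lies at chr8:56294585-56321043 on the plus strand. Kupffer cells had 368 and 546 CPM in CCl4 mice, against 1244 and 1312 CPM in corn oil mice. The groups did not overlap, and Hpgd fell by 1.57 on the log2 scale (SE 0.19, edgeR adjusted p = 0.00177), 2.97-fold lower, with a call in all 12 alternatives and changes between -1.85 and -1.33. Thinned shares of Kupffer cells with a UMI were 37.6% and 53.6% in CCl4 mice and 78.4% and 81.9% in corn oil mice, beside 83.2% and 93.3% and 97.7% and 97.7% before thinning. The endothelial markers Stab2, Clec4g, Pecam1, Cdh5 and Oit3 were all detected in the Kupffer gate of each mouse. They summed there to 468 and 516 CPM in CCl4 mice and 702 and 627 CPM in corn oil mice, lower in CCl4 mice as Hpgd was. Stab2 alone was there at 91.6 and 107 CPM in CCl4 mice and 145 and 137 CPM in corn oil mice. Its endothelial level was 1034 and 1022 CPM in CCl4 mice and 1599 and 1466 CPM in corn oil mice. The part of endothelial RNA in the Kupffer values of Hpgd was not tested. In the endothelial gate itself Hpgd had 564 and 410 CPM in CCl4 mice and 847 and 465 CPM in corn oil mice. The groups overlapped there, and the log2 change of -0.48 (SE 0.30, edgeR adjusted p = 0.385) was not called.

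In the stellate gate Hpgd had 11.2 and 14.3 CPM in CCl4 mice and 105 and 34.6 CPM in corn oil mice. It fell by 2.58 on the log2 scale (SE 0.50, edgeR adjusted p = 0.0158). The values rest on 34 UMIs in CCl4 mice and 86 in corn oil mice. The call was lost with mitochondrial UMIs limited to 15% (0.0561), without CCl4 mouse 1 (0.0522) and without corn oil mouse 1 (0.104). Without corn oil mouse 1 the change was -1.61, and without corn oil mouse 2 it was -3.10. Thinned shares of stellate cells with a UMI were 0.980% and 2.67% in CCl4 mice and 5.84% and 5.69% in corn oil mice, beside 5.24% and 5.17% of monocyte-gate cells in CCl4 mice and 3.85% and 15.4% in corn oil mice. The stellate share was at or below the monocyte share in 3 of 4 mice, but the corn oil monocyte shares are 1 of 26 and 2 of 13 cells, with intervals to 19.6% and 45.4%. Stellate cells with an Hpgd UMI carried 1274 CPM of the 5 Kupffer markers in CCl4 mice, against 126 CPM in those without, and 427 against 34.8 CPM in corn oil mice. The 5 monocyte markers stood there at 4502 against 1381 CPM in CCl4 mice and 3613 against 799 CPM in corn oil mice, and the part of this RNA in the fall was not tested. Hpgd in the Prg4/Serpinb2/Gata6 gate was at 66.4 and 56.1 CPM in CCl4 mice and 121 and 67.6 CPM in corn oil mice, not called at a log2 change of -0.70 (SE 0.41, edgeR adjusted p = 0.725). The monocyte gate had 43.5 and 45.5 CPM in CCl4 mice and 24.9 and 117 CPM in corn oil mice. Pooled over both treatments, the Kupffer and endothelial levels were near each other (endothelial minus Kupffer -0.55, SE 0.22, edgeR adjusted p = 0.04997). That call was lost without CCl4 mouse 1, without CCl4 mouse 2 and without corn oil mouse 2, with adjusted p of 0.0579, 0.518 and 0.275. By mouse, the Kupffer level lay above the endothelial level in each corn oil mouse and in CCl4 mouse 2, and below it in CCl4 mouse 1.

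Alox5 encodes 5-lipoxygenase and lies at chr6:116410077-116461178 on the minus strand. It was sparse, with 118 and 186 UMIs in kept cells of CCl4 mice and 165 and 250 in corn oil mice. Dropped cells of several gates held 12.7% and 8.60% of these in CCl4 mice, but 67.9% and 50.4% in corn oil mice. The monocyte gate held 23.7% and 48.4% in CCl4 mice and 7.88% and 6.0% in corn oil mice. The monocyte gate had 5.34 and 11.8 CPM in CCl4 mice (28 and 90 UMIs), against 54.0 and 159 CPM in corn oil mice (13 and 15 UMIs). The groups did not overlap, and the added test gave a fall of 3.40 on the log2 scale (SE 0.61, edgeR adjusted p = 0.0214), which was lost without corn oil mouse 1 (0.176) or corn oil mouse 2 (0.148). The change was -4.13 and -2.68 in these, and -4.26 without CCl4 mouse 2. The list for large peritoneal macrophages (Icam2, Selp, Fn1, Garnl3 and Lrg1) summed in this gate to 1596 and 1591 CPM in CCl4 mice with 5 of 5 detected, and 3467 and 6465 CPM in corn oil mice with 4 and 2 of 5 detected. Nearly all of the sum was Fn1, a gene monocytes also make, with the levels given beside Ptgs2, and Icam2 did not separate the groups, at 7.63 and 11.97 CPM in CCl4 mice and 8.30 and 10.6 CPM in corn oil mice. Corn oil cells of the gate with an Alox5 UMI carried 6565 CPM of this list, against 2250 CPM in those without. For the 5 Kupffer markers these values were 1156 and 234 CPM, and median UMIs per cell were 8612 and 5648. The part of RNA from other cells in the Alox5 values was not tested. Endothelial cells had 1.48 and 1.11 CPM in CCl4 mice and 0.167 and 0.893 CPM in corn oil mice (log2 change 1.27, SE 0.71, edgeR adjusted p = 0.332), and the Prg4/Serpinb2/Gata6 gate 3.73 and 20.3 CPM in CCl4 mice and 5.48 and 54.7 CPM in corn oil mice. In that gate the Alox5 UMIs lay mainly in cells with neither mesothelial nor hepatocyte markers, which held 51 of them in corn oil mouse 2.

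Alox5ap encodes the protein that presents arachidonic acid to 5-lipoxygenase, and lies at chr5:149264767-149288153 on the plus strand. The monocyte gate held 1206 and 1207 CPM in CCl4 mice and 1150 and 1908 CPM in corn oil mice, with overlap and no call in the added test (log2 change -0.36, SE 0.23, edgeR adjusted p = 0.481). Kupffer cells had 192 and 241 CPM in CCl4 mice, against 349 and 403 CPM in corn oil mice. The groups did not overlap, and Alox5ap fell by 0.88 on the log2 scale (SE 0.17, edgeR adjusted p = 0.00922), 1.84-fold lower, a call kept in all 12 alternatives with adjusted p up to 0.0497. Endothelial cells had 23.9 and 22.1 CPM in CCl4 mice and 16.7 and 23.6 CPM in corn oil mice, and stellate cells 30.9 and 67.7 CPM in CCl4 mice and 92.4 and 23.7 CPM in corn oil mice, with overlap in both. The Prg4/Serpinb2/Gata6 gate had 20.9 and 115 CPM in CCl4 mice and 98.7 and 476 CPM in corn oil mice (log2 change -2.19, SE 0.99, edgeR adjusted p = 0.647), and 444 of its Alox5ap UMIs in corn oil mouse 2 lay in cells with neither mesothelial nor hepatocyte markers. The Kupffer level was above the endothelial level (endothelial minus Kupffer -3.77, SE 0.43, edgeR adjusted p = 7.4e-06), and the endothelial and stellate levels missed the call (endothelial minus stellate -1.21, SE 0.47, edgeR adjusted p = 0.0566).

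Alox15 encodes 12/15-lipoxygenase, a known gene of peritoneal macrophages in mice, and lies at chr11:70344152-70352031 on the minus strand. It had 30 and 15 UMIs in kept cells of CCl4 mice and 88 and 61 in corn oil mice. It was at 0 in every mouse in the stellate gate and passed the count filter in no gate. The Prg4/Serpinb2/Gata6 gate had 2.99 and 1.19 CPM in CCl4 mice and 5.48 and 21.5 CPM in corn oil mice, from 5 and 22 UMIs. In corn oil mouse 2 alone there were 20, all in cells with neither mesothelial nor hepatocyte markers, and no ratio is drawn from them. Endothelial cells had 0.593 and 0.264 CPM in CCl4 mice and 0.0666 and 0.0388 CPM in corn oil mice, from 19 and 3 UMIs. Cells that met only the monocyte and the Prg4/Serpinb2/Gata6 gates, 14 and 15 in CCl4 mice and 17 and 10 in corn oil mice, held 18.0 and 0 CPM in CCl4 mice and 201 and 24.4 CPM in corn oil mice, and 76 UMIs of corn oil mouse 1 came from them.

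The pathway around the 10 members was followed with 63 further genes, 62 of them in the tables. In the Kupffer gate 3 rose and 10 fell among 37 tested, in the stellate gate 0 rose and 4 fell among 20, and in the endothelial gate 1 rose and 5 fell among 44. Over all genes tested, percent called higher and lower was 7.66 and 7.58 in the Kupffer gate, 3.83 and 4.01 in the stellate gate and 3.27 and 2.98 in the endothelial gate. None of 32 was called in the Prg4/Serpinb2/Gata6 gate. The list's median log2 change was -0.042 in the Kupffer gate, -0.15 in the stellate gate and -0.0055 in the endothelial gate, beside the medians over all genes given above. Ltc4s, which encodes leukotriene C4 synthase, fell in several gates. It had 14.7 and 19.7 CPM in Kupffer cells of CCl4 mice and 88.4 and 69.7 CPM in corn oil mice (log2 change -2.28, SE 0.22, edgeR adjusted p = 0.000654). In endothelial cells it had 19.7 and 25.5 CPM in CCl4 mice and 63.5 and 55.8 CPM in corn oil mice (-1.46, SE 0.16, edgeR adjusted p = 0.00576). In the monocyte gate it had 7.06 and 27.5 CPM in CCl4 mice and 345 and 625 CPM in corn oil mice (-4.71, SE 0.53, edgeR adjusted p = 0.00343 in the added test). The corn oil side of that gate rests on 26 and 13 cells, and its Ly6c2, Ccr2 and Fn1 levels differed between the groups as given beside Ptgs2, so that a change within a cell cannot be told apart from a change in which cells passed the gate. Mgst2, a related glutathione transferase, fell by 2.16 in endothelial cells, and Cysltr2, a receptor for cysteinyl leukotrienes, fell by 0.96 there. Both rested on low levels, with Mgst2 at most 1.24 CPM and Cysltr2 at most 11.9 CPM in any mouse.

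Ephx1, which encodes microsomal epoxide hydrolase, fell in each of the endothelial (-1.46), stellate (-1.71) and Kupffer (-1.54) gates, and Ephx2, which encodes the soluble form, fell in the endothelial gate (-1.90). Of the 16 receptors on the list, 1 of 7 tested fell in the endothelial gate, 1 of 4 in the stellate gate and 1 of 5 in the Kupffer gate, and none rose. With so few tested, 1 call each is no result about receptors beside the shares called over all genes. Ptger4, an E2 receptor, fell in stellate cells to 3.87 and 5.35 CPM in CCl4 mice, against 23.5 and 23.7 CPM in corn oil mice (-2.50, SE 0.56, edgeR adjusted p = 0.0280), and Ptger2 in Kupffer cells to 11.1 and 10.1 CPM in CCl4 mice, against 25.3 and 21.7 CPM in corn oil mice (-1.23). Slco2a1, the prostaglandin transporter that brings prostaglandins to Hpgd, fell by 1.33 in Kupffer cells. Ggt5, which cleaves leukotriene C4, fell by 1.45 in stellate and 1.92 in Kupffer cells, and Mgll, the monoacylglycerol lipase, fell by 0.98 and 2.26 in these gates. Of the phospholipase genes, Pla2g15, Pla2g16 and Pla2g7 fell in Kupffer cells by 0.57, 0.85 and 0.69, as did Cbr1, a carbonyl reductase, by 0.71. The genes that rose were Lpcat3 in endothelial cells (0.59), which returns arachidonic acid to membrane lipids, and Dpep2 (1.58), Abcc1 (0.89) and Ptges3 (0.73) in Kupffer cells. In the monocyte gate the added test called Fpr2, a lipoxin and formyl peptide receptor, higher at 1.84.

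**Figure D5:**
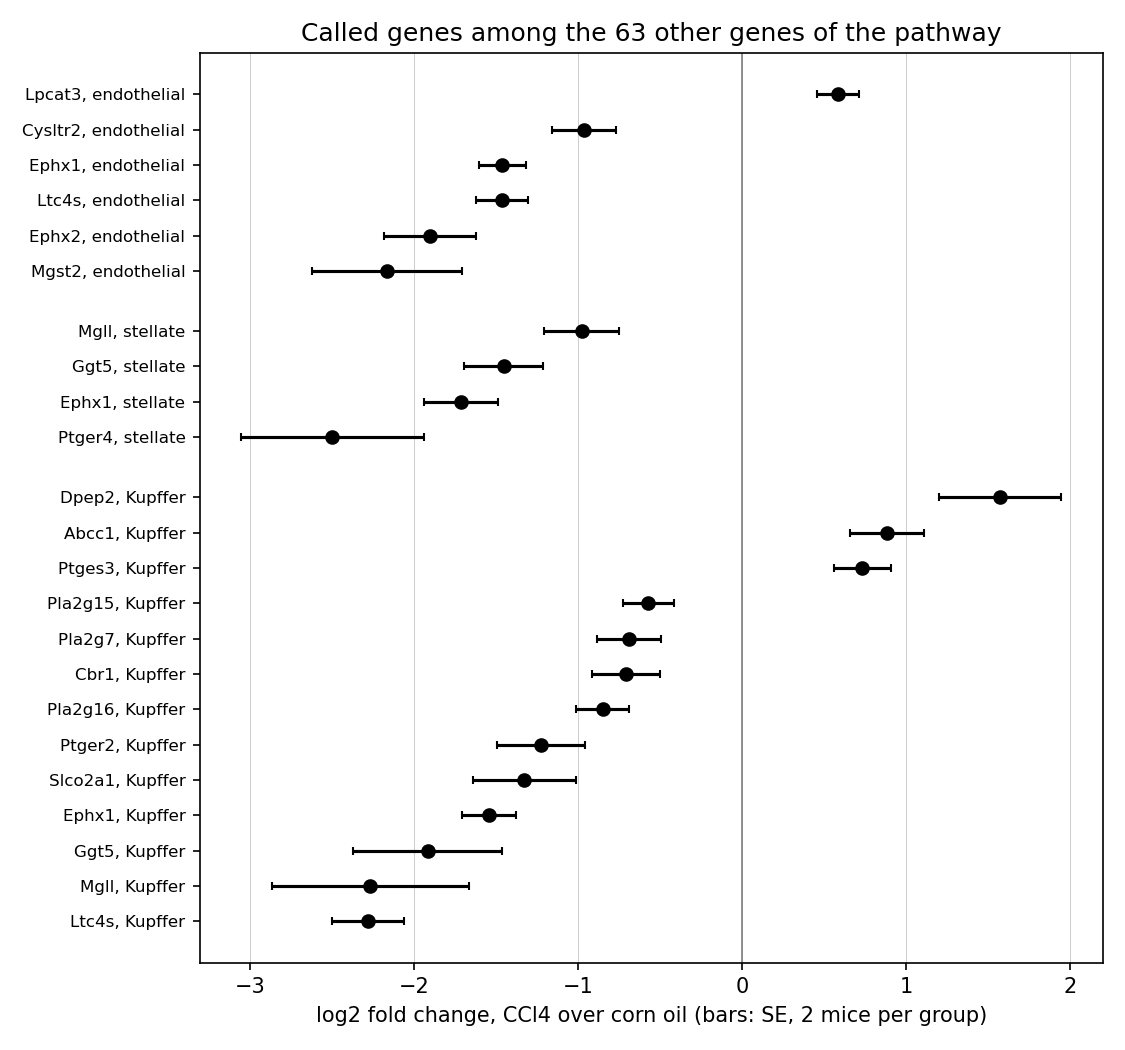
Log2 fold change of CCl4 over corn oil with its standard error (bars) for each of the 63 pathway genes called in the endothelial, stellate or Kupffer gate. In the Kupffer gate 10 points lie left of 0 and 3 right of it, in the stellate gate 4 lie left, and in the endothelial gate 5 lie left and 1 right.

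Genes with the most similar levels over the 20 sums of 5 gates and 4 mice are given as a description, by Pearson's r of log2(CPM + 1) over 10837 genes averaging at least 5 CPM. The sums of a mouse share a library, and the values follow which gates express a gene. Ptgs1 was closest to Tspan15 (0.87), St3gal6 (0.86) and Lix1 (0.84), and Hpgd to St3gal6 (0.90), AC149090.1 (0.88) and Tspan15 (0.86). Ptgs2 was closest to Hif1a (0.84), Emd (0.82) and Ube4a (0.80), and Ptgis to Sdc2 (0.93), Rtn1 (0.91) and Gstm5 (0.90). Hpgds was closest to Clec12a (0.95), Ms4a7 (0.94) and Fcgr4 (0.92), Alox5 to Bst1 (0.94) and Arg1 (0.93), and Alox5ap to Lyz2 (0.98), Selplg (0.98) and Ncf1 (0.97). For the sparse members the nearest genes were Dmkn (0.94) for Ptges, Ugt8a (0.98) for Ptgds and Cyp2c67 (0.86) for Alox15, which mainly reflect the Prg4/Serpinb2/Gata6 gate.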

How the data were processed

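Single-cell counts of 4 libraries, 1 mouse each, were used as deposited. Per the file headers and the submitters' processing notes, the authors' counts are molecules per gene and cell after error correction, made with the BD WTA Rhapsody Analysis Pipeline 1.9.1 on GRCm38 with GENCODE M19. No source used here names the aligner. Per the file headers, the table of CCl4 mouse 1 came from a separate run. UMIs were summed per mouse and gate and tested with edgeR 4.0.16 in R 4.3.3 (TMM scaling, filterByExpr, quasi-likelihood F test, Benjamini-Hochberg adjustment over all genes of the gate), with DESeq2 1.42.0 as an alternative. A gate was tested where each mouse had at least 20 cells. The standard error is the log2 change divided by the root of F. Differences between gates came from a joint fit with mouse as a block. Shares of cells used thinning to 1500 UMIs, with exact Clopper-Pearson 95% intervals, and intervals and floors cover counting error only.

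The libraries held 45408857 to 55529871 UMIs, which limits the precision for sparse members; those that filterByExpr removed were given as values with no test. No doublet caller was run; cells of several gates were dropped. All 10 members are named, with pathway and dissociation genes where called. The members and lists were chosen with earlier results of these data known. The fits were tested on simulated data. Alternatives were relative log expression scaling, DESeq2, no count filter, mitochondrial UMIs of at most 15%, gate minimums multiplied by 2, purer gates (at most 1 UMI of other gates), the top 5% of cells by UMIs removed, replicate number as a block and each mouse left out. The monocyte test and the joint fit of 3 gates were added after seeing the data. Replicate numbers only name the mice. Tables were handled with Python 3.11.15, numpy 2.4.6, scipy 1.17.1 and pandas 2.3.3, and figures with matplotlib 3.10.9.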

Additional observations from a re-analysis of the deposited data

Results flagged for a closer look

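The results below were listed because the CCl4 effect differed between gates by a test of the difference itself. In the joint fit of 4 gates, the Ptgis effect was lower in the Kupffer than in the Prg4/Serpinb2/Gata6 gate (difference -4.63 on the log2 scale, edgeR adjusted p = 0.0389). In the joint fit of the endothelial, stellate and Kupffer gates, the edgeR adjusted p over all gates was 8.2e-05 for Ptgis and 0.0194 for Ptgs1. The Ptgis effect differed by -1.47 between endothelial and stellate cells (edgeR adjusted p = 0.0415), by 3.43 between endothelial and Kupffer cells and by 4.90 between stellate and Kupffer cells, the first-named gate minus the other. The Ptgs1 effect differed by 1.37 between endothelial and stellate cells. None of the contrasts of these 3 gates was called in the fit of 4 gates.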

How the results depend on the processing

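Counts of called genes and members moved more than single values. Among genes, the endothelial count of 816 was 1543 with DESeq2, 2386 with no filter and 151 to 416 with a mouse left out; the stellate count of 571 was 365, 1029 and 309 to 923, and 354 with mitochondrial UMIs at most 15%. The Kupffer count of 1478 was 905 with DESeq2 and 845 to 1564 with a mouse left out. The Prg4/Serpinb2/Gata6 count of 0 was 80 with DESeq2, 523 with no filter and 0 to 928 with a mouse left out. The added monocyte count of 228 was 361 with DESeq2, 779 with no filter, 354 with stricter gates, 112 with purer gates and 0 to 204 with a mouse left out.

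In the main fits, members called numbered 1 of 7 endothelial, 2 of 4 stellate, 4 of 5 Kupffer, 0 of 6 Prg4/Serpinb2/Gata6 and 2 of 7 monocyte. Percent called over all genes was 6.24, 7.84, 15.2, 0.0 and 2.37 in the same order. For the alternatives these shares are not given, so the member counts there are no result about the members. The endothelial 1 was 4 with no filter and 2 with the top 5% of cells removed. The stellate 2 was 1 at 15% mitochondrial UMIs and 1 to 3 with a mouse left out, the Kupffer 4 was 3 to 5, the Prg4/Serpinb2/Gata6 0 was 2 with no filter and 0 to 4, and the monocyte 2 was 1 with relative log expression scaling, 1 with purer gates and 0 to 3. Genes whose effect differed between gates numbered 258, and 1565 with no filter, 452 at 15% mitochondrial UMIs, 835 with stricter gates, 591 with purer gates, 621 with 3 gates and 0 to 597 with a mouse left out. Members among the called genes numbered 0 of 10 tested. In the other settings, in the same order, they were 4 of 10, 1 of 5, 2 of 6, 2 of 5, 2 of 6 and 2 of 10. Level contrasts were counted for 13 chosen pairings of a member with 2 of the endothelial, stellate and Kupffer gates. Of these, 12 were called, and 10 to 13 over the alternatives, where no filter and the top 5% removed were left out. Percent called over all genes was 42.2 for endothelial against stellate, 55.3 for endothelial against Kupffer and 48.1 for stellate against Kupffer. The cause was not tested.

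With the replicate block, 1992 endothelial, 847 stellate, 1892 Kupffer, 48 Prg4/Serpinb2/Gata6 and 423 monocyte genes were called, and Hpgds in Kupffer cells passed (adjusted p 0.0370). Same-numbered mice deviated together with r of 0.067, -0.040, 0.112, 0.016 and 0.056 in these gates, and the numbers only name mice. Stricter gates, purer gates and the 15% limit left the Prg4/Serpinb2/Gata6 gate under 20 cells in a mouse and gave no value.

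Hpgds in Kupffer cells was also called with no filter (0.0205), without CCl4 mouse 1 (0.0373) and without corn oil mouse 2 (0.0477). Without corn oil mouse 1, Ptgis in the Prg4/Serpinb2/Gata6 gate was called higher at 2.29 (edgeR adjusted p = 0.00166), and Alox5 and Alox5ap were called lower at -2.35 and -2.90 (edgeR adjusted p = 0.0191 and 0.00198). The monocyte comparison rests on 26 and 13 corn oil cells.

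No called value changed sign. The sign turned in 13 repeats of CCl4 effects and in 5 of differences of effect that were not called. Alox5ap in stellate cells was at 0.077 with purer gates, and Ptgis in the Prg4/Serpinb2/Gata6 gate at -0.026 with the top 5% of cells removed. With a mouse left out, the log2 effect ran from -0.84 to 0.0030 for Hpgd and from -0.11 to 0.42 for Alox5ap in endothelial cells, and from -1.05 to 0.81 for Alox5ap in stellate cells. In the Prg4/Serpinb2/Gata6 gate it ran from -0.81 to 2.29 for Ptgis, from -1.63 to 1.38 for Ptges and from -3.12 to 0.80 for Alox5. In monocytes it ran from -2.37 to 6.86 for Ptgis (SE 14.3 at the upper end), from -1.34 to 0.78 for Hpgd and from -0.62 to 0.0092 for Alox5ap. The difference of effect (first-named gate minus the other) for Alox5ap ran from -0.86 to 1.45 between endothelial and stellate cells and from -0.29 to 1.84 between stellate and Kupffer cells. It ran from -0.15 to 1.16 for Hpgds between endothelial and Kupffer cells, and from -1.61 to 0.024 for Hpgd between stellate and Kupffer cells.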

Other observations

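Cells that met only the monocyte and the Prg4/Serpinb2/Gata6 gates, 14 and 15 in CCl4 mice and 17 and 10 in corn oil mice, were rich in several members. Ptgis was at 468 and 1481 CPM in CCl4 mice and 367 and 0 CPM in corn oil mice. Ptgs2 was at 126 and 211 CPM in CCl4 mice and 143 and 0 CPM in corn oil mice, and Alox5 at 18.0 and 18.5 CPM in CCl4 mice and 211 and 238 CPM in corn oil mice. These cells were dropped from every comparison between groups and were not tested.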
